A study of Mus musculus with 12 samples.

Results

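The GDNF family comprises 4 ligands (*Gdnf*, *Nrtn*, *Artn* and *Pspn*), their shared signalling receptor *Ret* and 4 ligand-binding coreceptors (*Gfra1* to *Gfra4*). These 9 genes, chosen by name, were taken from the 49671 genes measured by bulk RNA-seq in sorted cranial motor neurons of the mouse. The libraries were made from GFP-positive cells of wild-type embryos carrying the *Isl1*MN:GFP reporter, bred from C57BL/6J females and 129S1/C57BL/6J reporter males. The nuclei of the oculomotor nerve (cMN3), the trochlear nerve (cMN4) and the facial nerve (cMN7) were dissected apart at e10.5 and e11.5 and the GFP-positive cells purified by FACS, with 2 biological replicates for each of these 6 groups. Each sample merged several litters, the sex of the embryos was not determined, and the cells were those in which a motor neuron enhancer of *Isl1* drives GFP. RNA from e10.5 was amplified as whole transcriptome, whereas at e11.5 mRNA was captured on oligo-dT beads, so age and library preparation cannot be told apart. No treatment was given and no group carried a mutation.

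GDNF family ligands are secreted dimers that bind a GFRα coreceptor anchored in the cell membrane, and the complex then activates the receptor tyrosine kinase RET. Each ligand has a preferred partner: GDNF binds GFRα1, neurturin (*Nrtn*) GFRα2, artemin (*Artn*) GFRα3 and persephin (*Pspn*) GFRα4. GDNF is known as a survival and axon guidance factor for motor neurons, usually supplied by muscle, limb mesenchyme or Schwann cells.

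Libraries held 13991802 to 30536210 summed expected counts. At e10.5 ribosomal RNA loci took 8.92% to 31.9% of these, against 0.0896% to 0.692% at e11.5. *Isl1*, a defining marker of the labelled cells, was abundant in all 6 groups (mean of 424 to 595 CPM). *Hoxb1* was at 131 CPM in cMN7 at e10.5 and at 0 in cMN3. At that age *Otx2* was at 71.7 CPM in cMN3, 2.11 CPM in cMN4 and 0.211 CPM in cMN7. At e11.5 *Otx2* was at 112 CPM in cMN3 but also at 5.41 and 12.9 CPM in the cMN4 libraries. The mean of *En1* was 92.4 CPM in cMN4, 58.7 CPM in cMN3 and 0.329 CPM in cMN7 at e10.5. At e11.5 it was 77.0, 34.6 and 4.63 CPM. How cleanly the nuclei were parted at e11.5 was not tested. CPM here are TMM-scaled counts, set relative to library size, and serve to compare 1 gene between libraries, while TPM, which also divide by transcript length, serve to compare genes with each other.

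*Gdnf* (ENSMUSG00000022144, GRCm38 chr15:7810846-7837575, plus strand) was the ligand gene with the most counts, 12738 over the 12 libraries. In cMN4 it stood at 138 and 123 CPM at e10.5 and at 80.8 and 78.0 CPM at e11.5. In cMN3 it stood at 77.4 and 71.1 CPM at e10.5 and at 28.4 and 34.8 CPM at e11.5. In cMN7 it stood at 3.215 and 3.91 CPM at e10.5 and at 1.065 and 2.06 CPM at e11.5. From high to low, the groups thus ran cMN4, then cMN3 and last cMN7 at each age, with cMN4 of the later age just above cMN3 of the earlier one, and no neighbours in the order of the 6 groups overlapped. The lowest and highest library differed 130-fold.

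**Figure D1:**
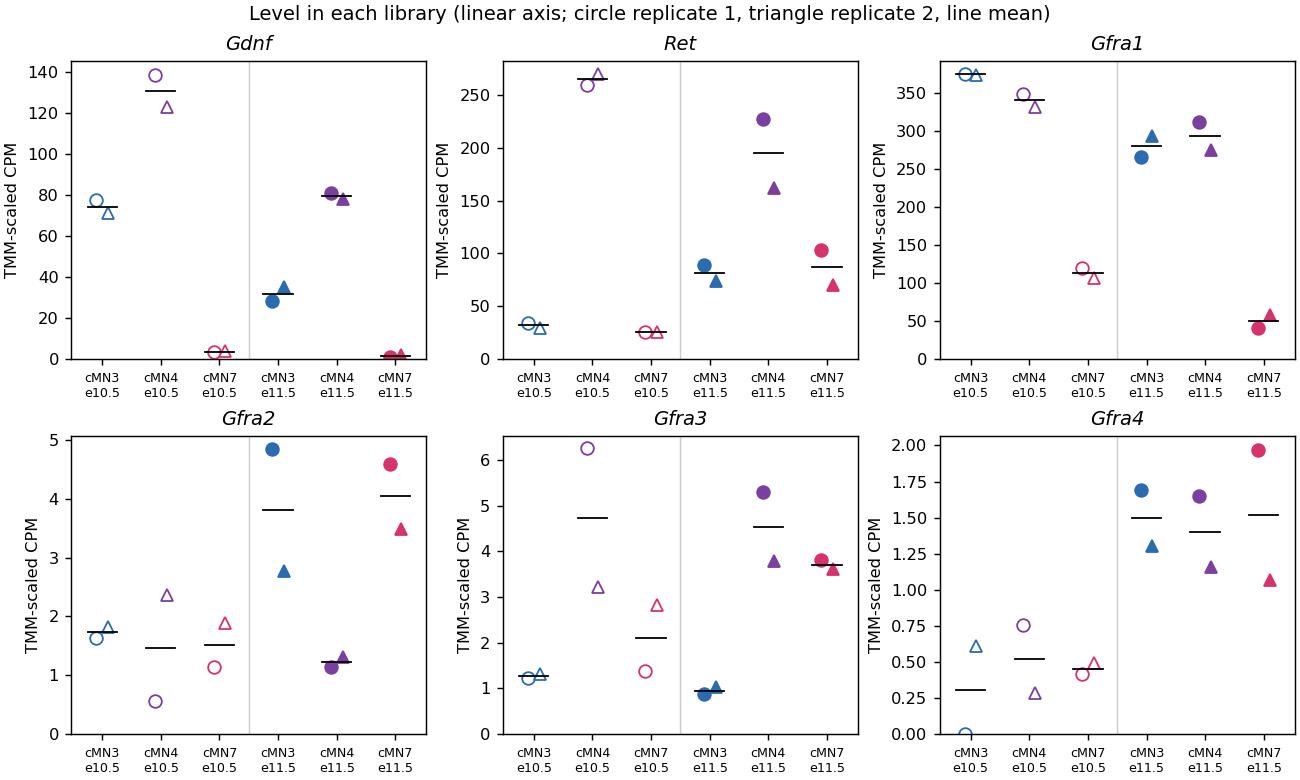
Level of the 6 family members that passed the filter on low counts in each of the 12 libraries, in TMM-scaled CPM on a linear axis that differs between panels (open symbols e10.5, filled symbols e11.5, circles replicate 1, triangles replicate 2, lines the group mean). *Gdnf* is highest in cMN4 and near 0 in cMN7, *Ret* is highest in cMN4, *Gfra1* is at similar levels in cMN3 and cMN4, and *Gfra2* to *Gfra4* stay under 7 CPM.

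Differences between nuclei were assessed by the quasi-likelihood test of edgeR on all 18022 genes that passed the filter on low counts, and adjusted p-values are by Benjamini-Hochberg over those genes. Over both ages *Gdnf* was 20.4-fold higher in cMN3 than in cMN7 (95% interval 15.6 to 26.8, log2 fold change 4.35, standard error 0.18, adjusted p = 3.63e-08). In cMN4 it was 42.9-fold higher than in cMN7 (95% interval 32.4 to 56.8, log2 fold change 5.42, standard error 0.18, adjusted p = 1.69e-08). Both comparisons rest on the same cMN7 libraries. These values changed little between ages: the log2 fold change was 4.38 at e10.5 and 4.32 at e11.5 for cMN3, and 5.19 and 5.65 for cMN4, and the difference between ages was not significant in either (adjusted p = 0.979 and 0.836).

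The trochlear and oculomotor nuclei also differed from each other in *Gdnf*. It was 2.10-fold lower in cMN3 than in cMN4 over both ages (95% interval 1.68 to 2.63, adjusted p = 0.0012). The fold was 1.76 at e10.5 (95% interval 1.29 to 2.41, adjusted p = 0.0359) and 2.51 at e11.5 (95% interval 1.83 to 3.44, adjusted p = 0.00601), with the libraries of the nuclei apart at both ages. The call at e10.5 was lost when any library was left out other than those of cMN4 or cMN7 at e11.5 (adjusted p up to 0.154 in these 8 fits). The call at e11.5 was lost without cMN3 replicate 1 of that age, where the log2 fold change was -1.19 (adjusted p = 0.108), and in the fit of e11.5 alone (-1.36, adjusted p = 0.0874). On the log2(TPM + 1) scale neither age passed (adjusted p = 0.0631 and 0.15). In sorted bulk samples a lower level may mean fewer cells that express a gene or less RNA in each of them, which cannot be told apart.

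RefSeq (GRCm38.p6) gives 2 start sites of *Gdnf* and 1 of *Gfra1*, the family members that were higher in both cMN3 and cMN4 than in cMN7, and their promoter windows are shown for that reason. Each window runs from 250 bases before the start to 50 after it, 5′ to 3′ on the strand of the gene, with matches to the E-box letters CANNTG in capitals. The first *Gdnf* window lies at chr15:7809798-7810097 and the second at chr15:7813477-7813776, both on the plus strand, and that of *Gfra1* at chr19:58455349-58455648 on the minus strand. Gene coordinates in this text are from GENCODE, which places starts differently. The first *Gdnf* window ends before the GENCODE start at 7810846, and the *Gfra1* window lies inside the gene, which ends at 58455909. Which start these cells use was not tested. RefSeq windows were found for 6 of the 9 members.
Gdnf start 1: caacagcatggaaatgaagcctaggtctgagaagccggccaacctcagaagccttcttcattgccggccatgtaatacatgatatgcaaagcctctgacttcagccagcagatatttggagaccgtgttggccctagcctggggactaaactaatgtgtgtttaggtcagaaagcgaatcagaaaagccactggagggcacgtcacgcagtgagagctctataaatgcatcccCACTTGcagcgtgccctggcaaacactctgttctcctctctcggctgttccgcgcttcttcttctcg
Gdnf start 2: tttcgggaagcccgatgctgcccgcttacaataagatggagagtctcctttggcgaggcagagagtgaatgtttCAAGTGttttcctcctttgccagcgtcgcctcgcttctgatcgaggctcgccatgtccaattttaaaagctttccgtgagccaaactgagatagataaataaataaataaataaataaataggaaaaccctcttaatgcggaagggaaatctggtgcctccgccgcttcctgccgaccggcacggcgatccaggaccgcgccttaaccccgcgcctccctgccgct
Gfra1: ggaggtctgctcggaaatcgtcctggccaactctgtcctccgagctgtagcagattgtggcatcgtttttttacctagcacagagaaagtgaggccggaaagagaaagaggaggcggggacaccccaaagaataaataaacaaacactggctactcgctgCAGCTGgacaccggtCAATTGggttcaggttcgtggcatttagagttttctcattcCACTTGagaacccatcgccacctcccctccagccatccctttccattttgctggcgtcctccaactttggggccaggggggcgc

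Each *Gdnf* window held 1 E-box and the *Gfra1* window held 3, and 72.3% of all 32851 RefSeq windows of that length held at least 1 (both strands, which read alike for this motif). The TATA box letters TATAAA occurred in the first *Gdnf* window, at base 220, and in 13.6% of all windows. The homeodomain core TAATTA and the GC box letters GGGCGG were in none of these 3 windows, against 5.29% and 35.7% of all windows on either strand. No motif overlapped another. These matches describe the letters of the windows and are no measure of binding.

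The other ligand genes were at or near 0 in every nucleus. *Nrtn* (chr17:56751325-56757530, minus strand) had 16 counts in all 12 libraries, *Artn* (chr4:117926162-117929763, minus strand) had 34 and *Pspn* (chr17:56999457-57000018, minus strand) had 27. *Nrtn* was at 0 in 6 libraries, *Artn* in 2 and *Pspn* in 5. A count of 0 in 1 library allows a level of up to 0.0805 to 0.283 CPM (3 counts), which covers counting error only. The highest single values were 0.660 CPM for *Nrtn* in a cMN4 library at e10.5 (7 counts), 0.696 CPM for *Artn* in a cMN3 library at e10.5 (8 counts) and 0.369 CPM for *Pspn* in a cMN7 library at e11.5 (9 counts). None of the 3 genes passed the filter on low counts. In the edgeR fit without that filter none of them differed between nuclei past the threshold (adjusted p = 0.277 to 1), with the lowest value for *Artn* in cMN3 against cMN4 at e10.5 (unadjusted p = 0.0562), so no difference was detectable at this depth. In TPM, *Gdnf* made up 95.3% to 99.8% of the ligand transcripts in each library of cMN3 and cMN4. The share in cMN7 ran from 18.9% to 73.3% and rests on few counts of each ligand.

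*Ret* (ENSMUSG00000030110, chr6:118151745-118197718, minus strand), the receptor that all 4 ligands share, was highest in cMN4. Its level there was 260.0 and 270.1 CPM at e10.5 and 228 and 162 CPM at e11.5. In cMN3 it was 33.8 and 29.7 CPM at e10.5 and 88.6 and 73.7 CPM at e11.5. In cMN7 it was 25.9 and 25.1 CPM at e10.5 and 103 and 70.3 CPM at e11.5. All 4 cMN4 libraries were thus above all others, whereas cMN3 and cMN7 overlapped at e11.5 and lay close at e10.5.

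Over both ages *Ret* was 4.83-fold higher in cMN4 than in cMN7 (95% interval 3.84 to 6.08, log2 fold change 2.27, standard error 0.15, adjusted p = 1.65e-06). It was 4.48-fold lower in cMN3 than in cMN4 (95% interval 3.56 to 5.63, log2 fold change -2.16, standard error 0.15, adjusted p = 8.34e-06). Between cMN3 and cMN7 no difference was detected (log2 fold change 0.11, 95% interval -0.21 to 0.43, adjusted p = 0.73), and this value turned to -0.16 on the log2(TPM + 1) scale, where the median of all genes was at -0.21.

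The excess of *Ret* in cMN4 had a larger value at the earlier age. Against cMN7 it was 10.4-fold at e10.5 (95% interval 7.38 to 14.7, adjusted p = 4.96e-06) and 2.25-fold at e11.5 (95% interval 1.64 to 3.07, adjusted p = 0.0058, or 0.0722 in a fit of e11.5 alone). The difference between these, tested as an interaction, was -2.21 on the log2 scale (standard error 0.29, adjusted p = 0.0105). Without cMN4 replicate 1, cMN7 replicate 1 or cMN7 replicate 2, all of e10.5, it was -2.22, -2.23 and -2.17 and did not pass the threshold (adjusted p = 0.0625, 0.092 and 0.0577), nor did it without both e10.5 libraries richest in ribosomal RNA (-2.16, adjusted p = 0.0897) or on the log2(TPM + 1) scale (-1.73, adjusted p = 0.162). Against cMN3 the excess was 8.35-fold at e10.5 (adjusted p = 2.73e-05) and 2.40-fold at e11.5 (adjusted p = 0.00752), the latter lost without cMN3 replicate 2 of e11.5 (log2 fold change -1.14, adjusted p = 0.105), in a fit of e11.5 alone and on the log2(TPM + 1) scale (adjusted p = 0.0971 and 0.0792). The change of this difference with age was 1.80 on the log2 scale (standard error 0.29, adjusted p = 0.0582), and 1.81 with the replicate block at e11.5 (adjusted p = 0.00115). It also passed the threshold in 3 of the 12 fits that left out 1 library. These were without cMN4 replicate 1, cMN7 replicate 1 or cMN7 replicate 2 of e11.5, at 2.06, 1.80 and 1.80. By limma on the log2(TPM + 1) scale it did not pass (2.07, or 1.78 above the median of all genes, adjusted p = 0.115).

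Markers of sensory ganglion neurons, cells that can carry *Ret* and *Gfra3*, were set beside these levels. Of the 7 genes listed, 6 or 7 had counts in each group, with *Runx3* at 0 in all groups of e10.5. The summed level was 658 to 815 CPM in cMN4 at e10.5 and 487 to 568 CPM at e11.5, against 227 to 305 CPM in cMN3 and 158 to 232 CPM in cMN7. Most of this sum in cMN4 was *Eya1*, at 371 to 662 CPM in its 4 libraries. *Pou4f1*, a defining sensory transcription factor, was at 5.37 to 7.10 CPM in cMN4, 2.10 to 4.09 CPM in cMN3 and 26.7 to 68.4 CPM in cMN7, and *Tlx3* did not exceed 4.62 CPM in any library. *Pou4f1* was thus lower in cMN4 than in cMN7. The neural crest and glia list lay at 20.8 to 122 CPM in cMN4, 22.0 to 58.5 CPM in cMN7 and 29.3 to 46.5 CPM in cMN3, over both ages. The list of 6 catecholaminergic markers summed to 43.9 to 50.6 CPM in cMN3, 98.7 to 116 CPM in cMN4 and 199.7 to 223 CPM in cMN7 at e10.5. At e11.5 it summed to 35.2 to 58.4 CPM in cMN3, 72.9 to 74.9 CPM in cMN4 and 70.0 to 82.5 CPM in cMN7. Most of the cMN7 sum at e10.5 was *Slc18a2*, at 169 and 151 CPM. Of the 5 tested genes of the list, *Th*, *Dbh* and *Slc6a2* were lower in cMN3 than in cMN4 over both ages, as *Ret* and *Gfra3* were. In cMN4 against cMN7, where *Ret* was higher, *Th* was higher, *Slc18a2* was lower and *Dbh* was not called. In cMN3 against cMN7, *Dbh* and *Slc18a2* were lower, while no difference in *Ret* was detected. What part these lists have in the levels of the family was not tested.

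*Gfra1* (ENSMUSG00000025089, chr19:58235604-58455909, minus strand), the coreceptor of GDNF, had the most counts of the family, 60782 over the 12 libraries. In TPM it exceeded *Ret* in every library but cMN7 replicate 1 at e11.5, where *Gfra1* was at 19.3 and *Ret* at 42.1. In cMN3 it stood at 375 and 374 CPM at e10.5 and at 266 and 293 CPM at e11.5. In cMN4 it stood at 348 and 331 CPM at e10.5 and at 312 and 274 CPM at e11.5. In cMN7 it stood at 120.1 and 107 CPM at e10.5 and at 40.9 and 58.0 CPM at e11.5. Every library of cMN3 and cMN4 was above every cMN7 library. Among the ordered groups, cMN3 and cMN4 at e11.5 overlapped and the other neighbours did not. An opposite-strand gene, Gm16277, shares exon sequence with *Gfra1*, and since the strand setting of the counting is not given in the sources used here, reads of the pair may not be told apart. Gm16277 had 35 counts in all, 30 of them in cMN7 replicate 1 at e11.5.

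Over both ages *Gfra1* was 4.32-fold higher in cMN3 (95% interval 3.60 to 5.19, adjusted p = 4.61e-07) and 4.21-fold higher in cMN4 (95% interval 3.51 to 5.06, adjusted p = 6.23e-07) than in the same cMN7 libraries. At e10.5 the log2 fold changes were 1.72 for cMN3 and 1.58 for cMN4 (adjusted p = 6.67e-05 and 0.000149). At e11.5 they were 2.50 and 2.57 (adjusted p = 5.14e-06 and 4.46e-06). On the log2(TPM + 1) scale the value for cMN3 at e10.5 was 0.84 (adjusted p = 0.0568), or 1.37 above the median of all genes on that scale. Between cMN3 and cMN4 the log2 fold change of *Gfra1* was 0.04 with a 95% interval of -0.22 to 0.29 (adjusted p = 0.927), and it was -0.19 on the log2(TPM + 1) scale, where the median of all genes was -0.15.

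The gap in *Gfra1* to cMN7 had larger values at e11.5, by 0.78 for cMN3 and 0.98 for cMN4 on the log2 scale (standard error 0.23 for each, adjusted p = 0.109 and 0.2). The first passed the threshold with the replicate block at e11.5 (0.79, adjusted p = 0.0455). Of the 12 fits that left out 1 library, both passed it only without cMN7 replicate 2 of e11.5, at 1.07 and 1.28. By limma on the log2(TPM + 1) scale neither passed (1.76 and 1.57, adjusted p = 0.061 and 0.24).

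**Figure D2:**
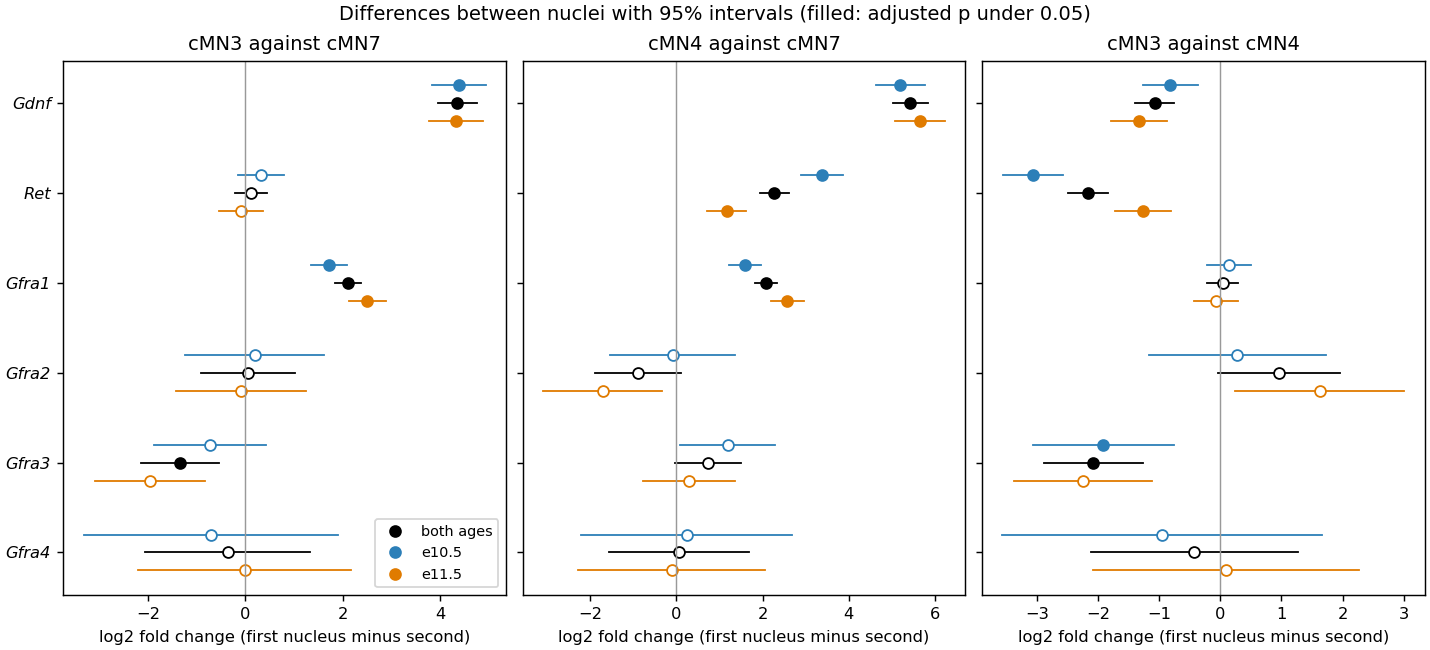
Log2 fold change (points) with 95% interval (lines) of the 6 tested members for each pair of nuclei, over both ages (black), at e10.5 (blue) and at e11.5 (orange), filled where the adjusted p passed 0.05. *Gdnf* and *Gfra1* lie to the right of 0 against cMN7 in both other nuclei, while *Ret* does so only for cMN4 among these, at 3.38 at e10.5 and 1.17 at e11.5, and the intervals of *Gfra2* and *Gfra4* are wide.

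*Gfra3* (ENSMUSG00000024366, chr18:34689898-34720387, minus strand), the coreceptor of artemin, was low but differed between the eye-muscle nuclei. It stood at 6.25 and 3.21 CPM in cMN4 at e10.5 and at 5.30 and 3.78 CPM at e11.5. In cMN3 it stood at 1.21 and 1.30 CPM at e10.5 and at 0.865 and 1.04 CPM at e11.5. In cMN7 it stood at 1.37 and 2.81 CPM at e10.5 and at 3.81 and 3.60 CPM at e11.5. All cMN3 libraries were thus under all libraries of the other nuclei.

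Over both ages *Gfra3* was 4.23-fold lower in cMN3 than in cMN4 (95% interval 2.41 to 7.41, adjusted p = 0.00617). The log2 fold change was -1.92 at e10.5 (adjusted p = 0.0485) and -2.25 at e11.5 (adjusted p = 0.0558, or 0.0483 with the replicate block at e11.5). The call at e10.5 was lost when any 1 library other than cMN4 replicate 2 of e10.5 was left out (adjusted p up to 0.214), and a call at e11.5 was gained without either cMN4 library of e10.5 (-2.25 in both, adjusted p = 0.0458 and 0.0429). Against cMN7 it was 2.54-fold lower in cMN3 (95% interval 1.45 to 4.43, adjusted p = 0.0364). That call was lost in 9 of 12 fits that left out 1 library (adjusted p up to 0.201), the exceptions being both cMN4 libraries and cMN7 replicate 1 of e10.5. Within e11.5, in the fit of all 6 groups, the log2 fold change of cMN3 against cMN7 was -1.95 (adjusted p = 0.0627), and -1.95 without cMN4 replicate 2 of e10.5 (adjusted p = 0.0471). When the libraries of e11.5 were fitted alone, cMN3 was lower in both pairs, at -1.98 against cMN7 (adjusted p = 0.0285) and -2.28 against cMN4 (adjusted p = 0.0363). By limma on the log2(TPM + 1) scale neither pair passed at e11.5 (-1.27 and -1.61, adjusted p = 0.22 and 0.163). In the fit of e10.5 alone the call against cMN4 was lost (-1.90, adjusted p = 0.116). Between cMN4 and cMN7 the log2 fold change was 0.74 (95% interval -0.03 to 1.51, adjusted p = 0.252).

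*Gfra2* (chr14:70890120-70979838, plus strand) and *Gfra4* (chr2:131039632-131043088, minus strand), the coreceptors of neurturin and persephin, were low in every nucleus. *Gfra2* ranged from 0.568 to 4.85 CPM with a median of 1.86 CPM. Its highest values were in cMN3 (4.85 and 2.78 CPM) and cMN7 (4.59 and 3.49 CPM) at e11.5, above cMN4 of that age (1.14 and 1.31 CPM). *Gfra4* ranged from 0 to 1.97 CPM with a median of 0.912 CPM and overlapped between nuclei at each age. Neither passed the test in any pair of nuclei, and the intervals over both ages were -0.92 to 1.03 for *Gfra2* and -2.06 to 1.33 for *Gfra4* in cMN3 against cMN7 on the log2 scale. For *Gfra2* the log2 fold change of cMN4 against cMN7 was -0.90 (95% interval -1.90 to 0.10, adjusted p = 0.287), and it passed without both e10.5 libraries richest in ribosomal RNA (-1.56, adjusted p = 0.0408). In cMN3 against cMN4 it was 0.95 (95% interval -0.05 to 1.95, adjusted p = 0.258).

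Of the 6 members that passed the filter, *Gdnf* and *Gfra1* were higher and *Gfra3* lower in cMN3 than in cMN7 over both ages, which makes 2 (5.44% of all tested genes were higher) and 1 (5.89% lower). In cMN4, 3 exceeded cMN7 (4.73% of all genes higher, 4.89% lower), and 3 were lower in cMN3 than in cMN4 (3.48% of all genes lower, 3.57% higher). Within e10.5, 2 were higher in cMN3 (7.47% of all genes) and 3 in cMN4 (3.22%) than in cMN7, and 3 were lower in cMN3 than in cMN4 (3.63%). Within e11.5 these counts were 2 (2.03%), 3 (2.06%) and 2 (0.793%). For the change of these differences with age, 1 member, *Ret*, was called for cMN4 against cMN7 (0.333% of all genes). In edgeR's test none was called for cMN3 against cMN7 (2.7%) or cMN3 against cMN4 (0.0999%). In each of these last comparisons 1 member had an unadjusted p under 0.05, *Gfra1* in the first and *Ret* in the second, and DESeq2 called 1 in each.

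Per length of transcript, the balance of coreceptor to receptor differed between nuclei. In cMN4 the TPM of *Gfra1* were 1.73 and 1.57 times those of *Ret* at e10.5 and 1.72 and 2.14 times at e11.5. In cMN3 the ratio was 13.2 and 17.1 at e10.5 and 3.81 and 4.94 at e11.5. In cMN7 it was 6.92 and 5.98 at e10.5 and 0.458 and 1.07 at e11.5. The ratio was therefore lowest in cMN4 at e10.5 and lowest in cMN7 at e11.5, with no overlap between nuclei at either age. The TPM of *Gdnf* were 3.18 and 3.43 times those of *Ret* in cMN3 at e10.5, and under those of *Ret* in all other libraries.

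**Figure D3:**
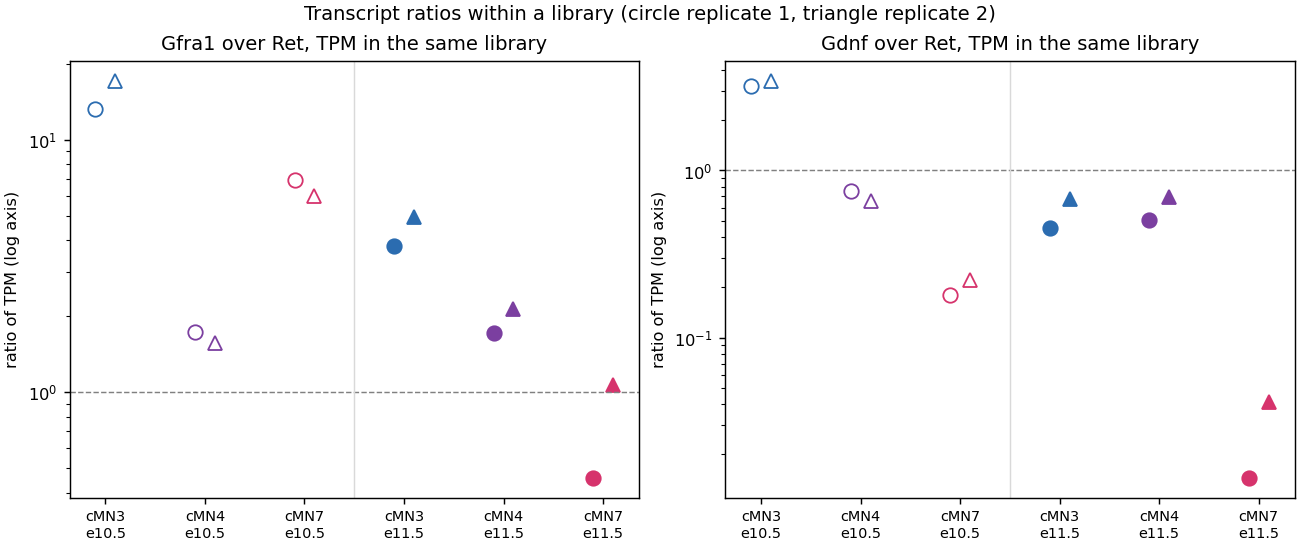
Ratio of the TPM of *Gfra1* to those of *Ret* (left) and of *Gdnf* to *Ret* (right) in each library, on log axes, with a dashed line at a ratio of 1 (open symbols e10.5, filled e11.5, circles replicate 1, triangles replicate 2). The *Gfra1* to *Ret* ratio falls from 13.2 and 17.1 in cMN3 at e10.5 to 0.458 and 1.07 in cMN7 at e11.5, and the *Gdnf* to *Ret* ratio is above 1 in cMN3 at e10.5 alone among the 6 groups.

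*Gfra1* made up 92.3% to 98.8% of the coreceptor TPM in the libraries of cMN3, cMN4 and e10.5 cMN7, and 68.0% and 80.3% in cMN7 at e11.5. In that group the TPM were 19.3 and 35.3 for *Gfra1* and 42.1 and 33.0 for *Ret*. In cMN4 at e11.5 the TPM were 179 and 170.1 for *Gfra1*, 104 and 79.6 for *Ret* and 52.6 and 54.9 for *Gdnf*.

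From e10.5 to e11.5, averaged over nuclei, 4 of the 6 tested members passed the test, 2 higher at e11.5 (26.6% of all genes higher) and 2 lower (23.1% lower). *Gdnf* was lower at e11.5 by 2.06-fold (log2 fold change -1.04, standard error 0.13, adjusted p = 8.91e-05) and *Gfra1* by 1.53-fold (log2 fold change -0.61, standard error 0.10, adjusted p = 0.000331). *Ret* was higher by 1.86-fold (log2 fold change 0.89, standard error 0.12, adjusted p = 0.000123). *Gfra4* was higher by 1.84 on the log2 scale (standard error 0.63, adjusted p = 0.0306), from a mean of 0.426 to 1.47 CPM. The average holds unlike courses of *Ret*, whose mean was 31.7 CPM at e10.5 and 81.2 CPM at e11.5 in cMN3, 25.5 and 86.8 CPM in cMN7, and 265 and 195 CPM in cMN4. In TPM the mean of *Ret* in cMN4 was 91.78 at e10.5 and 91.85 at e11.5. Mean TPM of *Gfra1* at these ages were 122.3 and 163.3 in cMN3, 152.3 and 174.7 in cMN4, and 67.98 and 27.29 in cMN7.

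On the log2(TPM + 1) scale *Gdnf* and *Gfra1* no longer passed the test of age (-0.42 and -0.23, adjusted p = 0.0852 and 0.267), on which scale the median of all genes was 0.33, and relative to it they stood at -0.75 and -0.56. *Gfra4* lost its call in 7 of 12 fits that left out 1 library (adjusted p up to 0.0777), which were both cMN3 libraries, cMN4 replicate 1 and cMN7 replicate 1 of e11.5, and cMN4 replicate 2 and both cMN7 libraries of e10.5. *Gfra2* stood at 0.78 (adjusted p = 0.1), and at 1.24 without cMN4 replicate 2 of e10.5 (adjusted p = 0.0102).

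Across the 12 libraries, with log2 CPM centred within each age, *Gdnf* and *Gfra1* had a Pearson r of 0.96, *Gdnf* and *Ret* of 0.586 and *Ret* and *Gfra1* of 0.384. These points share libraries and nuclei and are given as a description. Among abundant genes the pattern most like *Gdnf* was that of *Chrna3*, a nicotinic receptor subunit (r = 0.987), *Pax5*, a transcription factor of the midbrain-hindbrain boundary (r = 0.985), and *Camk2n1*, an inhibitor of CaMKII (r = 0.982). *Pax5* had means of 222 and 391 CPM in cMN3 and cMN4 at e10.5 and of 2.02 CPM in cMN7. For *Gfra1* these were *Tle4*, a transcriptional corepressor (r = 0.989), *Chrnb4*, another nicotinic subunit (r = 0.987), and *Jag1*, a Notch ligand (r = 0.985). For *Ret* they were *Actn4*, an actin crosslinker (r = 0.974), *Ipo4*, an importin (r = 0.97), and *Lbh*, a transcriptional cofactor (r = 0.963). With log2(TPM + 1) in place of CPM, *Pax5* and *Jag1* alone of these 9 were still among the first 3.

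Other genes of RET signalling were taken from a list of 40, of which 37 were tested. Against cMN7, 6 were higher and 5 lower in cMN3 and 6 higher and 2 lower in cMN4, and in cMN3 against cMN4, 2 were higher and 8 lower. These calls made up 29.7%, 21.6% and 27.0% of the tested genes of the list, where the shares of all genes were 5.44% higher and 5.89% lower, 4.73% and 4.89%, and 3.57% and 3.48%. The medians over the list were -0.07, 0.05 and -0.15, near those of all genes at 0.00, -0.01 and 0.00. *Etv4*, a transcription factor induced by receptor tyrosine kinases, was higher than in cMN7 by 4.51 in cMN3 and 4.87 in cMN4 on the log2 scale (adjusted p = 6.37e-06 and 3.75e-06). The feedback inhibitor *Spry4* was higher by 2.99 and 4.60 (adjusted p = 5.86e-06 and 2.87e-07) and differed between cMN3 and cMN4 by -1.61 (adjusted p = 0.000706). *Dusp6*, an ERK phosphatase, was higher in cMN4 than in cMN7 by 2.51 (adjusted p = 7.52e-07).

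*Pik3r1*, the regulatory subunit of PI3 kinase, was the gene of that list with the smallest p in cMN3, with a mean of 580 CPM at e10.5 against 78.5 CPM in cMN4 and 55.5 CPM in cMN7. Its log2 fold change was 3.01 against cMN7 and 2.75 against cMN4 (adjusted p = 4.46e-09 and 5.35e-08). *Sorl1*, which sorts GDNF and GFRα1 within the cell, had the reverse order to *Gdnf*: it was lower than in cMN7 at -2.002 in cMN3 and -3.97 in cMN4 on the log2 scale (adjusted p = 1.52e-06 and 2.92e-08). *Epha4*, a guidance receptor that acts with RET in limb motor axons, was lower in cMN3 than in cMN4 at -1.68 (adjusted p = 0.000277).

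Receptors and ligands of other trophic families, 26 tested of 31 listed, had 5 higher and 7 lower in cMN3 and 5 higher and 5 lower in cMN4 than in cMN7, and 4 higher and 3 lower in cMN3 than in cMN4. These calls made up 46.2%, 38.5% and 26.9% of the tested genes of the list, beside the same shares of all genes. Their medians were -0.05, 0.05 and 0.10 on the log2 scale. *Alk*, a receptor tyrosine kinase, was higher than in cMN7 by 2.08 in cMN3 and 2.60 in cMN4 (adjusted p = 5.05e-07 and 1.12e-07), and *Lifr*, the LIF receptor, by 1.502 and 1.47 (adjusted p = 3.62e-06 and 4.64e-06). *Met*, the receptor of hepatocyte growth factor, was lower in cMN3, at -3.40 against cMN7 and -4.09 against cMN4 (adjusted p = 6.44e-05 and 4.49e-05).

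Among neurotrophin receptors, *Ntrk2* was higher in cMN3 than in cMN7 by 1.65 on the log2 scale (adjusted p = 0.000383) and in cMN4 than in cMN7 by 2.09 (adjusted p = 6.82e-05). *Ntrk3* and *Ngfr* were also lower in cMN3 than in cMN7, at -0.95 and -1.35 (adjusted p = 0.00242 and 0.000508). They were lower still in cMN4, at -2.15 and -2.59 against cMN7 (adjusted p = 6.86e-06 and 4.39e-06), and cMN3 exceeded cMN4 by 1.197 and 1.24 (adjusted p = 0.00134 and 0.00211). *Kdr*, a VEGF receptor that is also an endothelial marker, was higher in cMN3 than in cMN4 by 2.15 (adjusted p = 0.00256). The 4 other endothelial markers (*Pecam1*, *Cdh5*, *Tek* and *Emcn*) summed to 1.69 to 16.4 CPM in cMN3 and 1.26 to 2.08 CPM in cMN4 at e10.5, and to 0.338 to 2.68 CPM and 0.431 to 0.564 CPM at e11.5. *Kdr* itself stood at 7.50 to 8.26 CPM and 1.60 to 2.78 CPM at e10.5, and at 4.28 to 5.26 CPM and 0.589 to 1.10 CPM at e11.5. The other markers thus overlapped between these nuclei at both ages while *Kdr* did not, and their part in the level of *Kdr* was not tested.

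**Figure D4:**
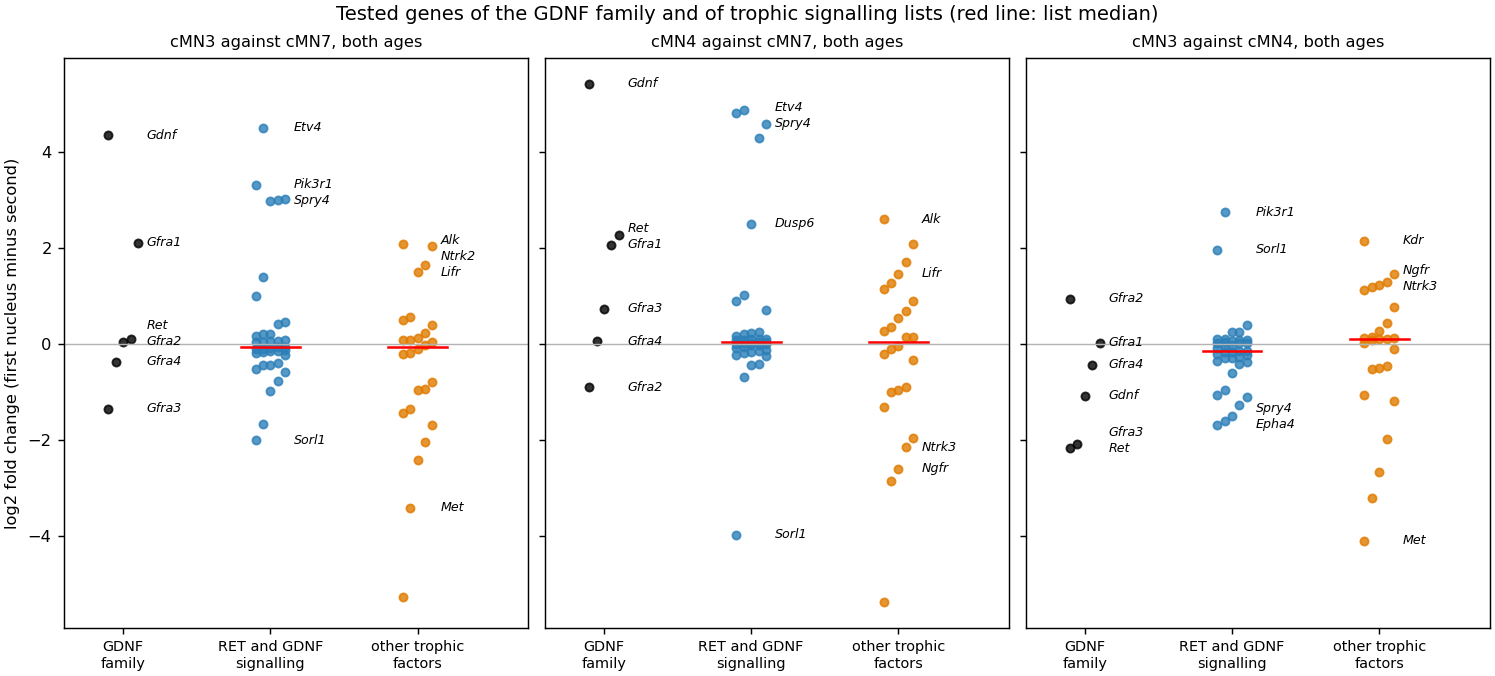
Log2 fold change over both ages of the tested GDNF family members (black), RET signalling genes (blue) and other trophic genes (orange) for each pair of nuclei, 1 point per gene, with red lines at the medians of the lists. Names stand beside the family members and, in each panel, the 4 genes of each list with the smallest p in that comparison. *Gdnf* stands at 4.35 and 5.42 against cMN7, at a level with *Etv4* at 4.51 and 4.87, while both list medians lie near 0.

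Of the RET signalling genes, 12 had more and 14 had less expression at the later age, and of the other trophic genes 4 and 10, beside the shares of all genes given above. *Grb10*, an adaptor that binds RET, was lower at -1.21 on the log2 scale, *Epha4* at -1.28 and *Ncam1*, a RET-independent receptor of GDNF, at -0.61, while the adaptor *Gab2* was higher at 0.74 (adjusted p = 4.08e-06, 5.44e-05, 9.79e-05 and 1.66e-05). *Lifr*, *Igf1r*, *Igf1* and *Mdk* were lower at -1.21, -1.11, -2.49 and -1.06 (adjusted p = 2.89e-06, 1.53e-05, 2.18e-05 and 0.000327). The library preparation changed with age for these genes as for the family.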

How the data were processed

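Reads were aligned by the authors to Ensembl GRCm38.87 (STAR), and RSEM then gave the deposited expected count of each gene, which is not normalized. The TPM and the effective length in bases of each gene were also deposited by the authors as RSEM gave them. Their methods name DESeq2 without a design formula. Here expected counts were rounded, 18022 genes passed edgeR's filter (minimum count 10), TMM factors were computed, and 6 groups were fitted with edgeR's quasi-likelihood test (6 residual degrees of freedom, Benjamini-Hochberg at 0.05, two-sided). A standard error is the log2 fold change divided by the root of F. Symbols came from identifiers (49326 of 49671 matched), and coordinates from GENCODE vM21. The members and lists were chosen with earlier results of these data known. Named list genes were among the 4 with the smallest p per comparison, and genes alike in pattern were the 3 with the highest r at a mean log2 CPM of at least 3. Same-numbered replicates deviated together at e11.5 (r = 0.401, 0.327 and 0.339) but not at e10.5 (0.039, -0.022 and 0.016). The reported fit has no block, and fits with the replicate block at e11.5 or over both ages were alternatives. Scripts were tested on simulated data. R 4.3.3, edgeR 4.0.16, limma 3.58.1 and DESeq2 1.42.0 were used. Alternatives covered scaling, filters, TPM with limma, DESeq2, blocks, ribosomal RNA and each library in turn. cMN6 libraries were not analysed here. A motor neuron marker list is not reported here.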

Additional observations from a re-analysis of the deposited data

Results flagged for a closer look

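The difference in *Ret* between cMN4 and cMN7 changed with age beyond the threshold of its interaction test. The value was -2.21 on the log2 scale (standard error 0.29, edgeR's quasi-likelihood test, adjusted p = 0.0105). The excess in cMN4 was 3.38 at e10.5 and 1.17 at e11.5. Over all alternatives the adjusted p ran from 9.14e-14 to 0.263 with the direction kept. Library preparation changed with age too, and its part was not tested.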

How the results depend on the processing

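Each comparison was recomputed under 22 alternatives where they applied. Of the 29 tested member values that passed the threshold, none turned direction, and 17 stayed past it in every alternative that was run. Of the values that did not pass, 28 were recomputed, leaving out *Gfra2* and *Gfra4* within an age and *Gfra2* to *Gfra4* for changes with age, and 39 of these 597 recomputed values changed sign and 30 passed. Depth limits *Nrtn*, *Artn* and *Pspn*, which did not pass the filter on low counts, and 2 libraries per group limit every interval. The causes of the changes listed here were not tested.

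On log2(TPM + 1) and log2(TPM + 0.1) by limma, the number of members called was 1 and 1 for cMN3 against cMN7 at e10.5, 1 and 1 for cMN3 against cMN4 at e10.5, 0 and 0 for cMN3 against cMN4 at e11.5, and 0 and 0 for the change of cMN4 against cMN7 with age. On these scales *Ret* in cMN3 against cMN7 changed sign to -0.161 and -0.179 over both ages, -0.334 and -0.37 at e10.5, 0.011 and 0.012 at e11.5, and 0.345 and 0.381 for the change with age. *Gfra2* in cMN3 against cMN7 was at -0.11 and -0.222, and *Gfra4* in cMN4 against cMN7 at -0.042 on the second scale. *Gfra1* in cMN3 against cMN4 was at -0.194 and -0.195 over both ages, -0.289 and -0.291 at e10.5, and 0.191 and 0.192 for the change with age. *Gdnf* in cMN3 against cMN7 was at 0.32 and 0.747 for the change with age. TPM gave 4 of 9 members the same highest group as CPM did.

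The replicate block at e11.5 gave 1 member called for the change of cMN3 against cMN7 with age and 1 for that of cMN3 against cMN4. The block over both ages also gave 1 for the latter. Besides these and the values given beside *Gfra3*, the pairing changed no call of a member, except that *Gfra3* in cMN3 against cMN4 at e10.5 did not pass with the block over both ages (-1.91, adjusted p = 0.0581). DESeq2 and the fit without a filter on low counts gave 1 and 1 for the change with age of cMN3 against cMN7, 2 and 2 for that of cMN4 against cMN7, and 1 and 1 for that of cMN3 against cMN4. Without both e10.5 libraries richest in ribosomal RNA, 1 member was called for cMN3 against cMN4 at e10.5 and 0 for the change of cMN4 against cMN7 with age. The fit on 1 age alone gave 1 for cMN3 against cMN4 at e11.5, which was *Gfra3*.

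Leaving out each library in turn, the members called ranged from 1 to 2 for cMN3 against cMN4 at e10.5 and from 1 to 3 at e11.5. For the change with age they ranged from 0 to 1 for cMN3 against cMN7, from 0 to 2 for cMN4 against cMN7 and from 0 to 1 for cMN3 against cMN4. For cMN3 against cMN7 over both ages, *Ret* ranged from -0.012 to 0.259, *Gfra2* from -0.174 to 0.263 and *Gfra4* from -3.204 to 0.203. *Gfra4* ranged from -0.387 to 0.314 for cMN4 against cMN7 and from -3.26 to 0.135 for cMN3 against cMN4, and *Gfra1* in the latter from -0.012 to 0.079. At e11.5 *Ret* in cMN3 against cMN7 ranged from -0.333 to 0.208 and *Gfra1* in cMN3 against cMN4 from -0.161 to 0.021. With age *Gfra3* ranged from -0.0 to 0.345, and the change of *Gdnf* in cMN3 against cMN7 with age from -0.432 to 0.526.

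Over all genes, the number called over both ages was 2043 for cMN3 against cMN7 (1170 to 2851 over all settings), 1734 for cMN4 against cMN7 (1024 to 2463) and 1272 for cMN3 against cMN4 (556 to 2118). At e10.5 it was 2599 (966 to 4362), 1180 (482 to 1774) and 1432 (425 to 2447) for the same pairs, and at e11.5 it was 744 (378 to 1514), 746 (391 to 1434) and 334 (82 to 931). For age it was 8971 (7345 to 9697), and for the change of each pair with age 486 (22 to 2170), 60 (4 to 382) and 18 (3 to 673). On log2(TPM + 1) the share of calls that were higher moved from 48.0% to 22.4%, 49.1% to 38.6% and 50.6% to 34.8% for the pairs over both ages, from 51.8% to 9.22%, 49.1% to 24.6% and 54.3% to 24.9% at e10.5, from 53.5% to 76.5% for age, and from 32.7% to 87.4%, 41.7% to 90.9% and 50% to 72.7% for the changes with age.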
